A study of Rattus norvegicus with 18 samples.

Results

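The genes described here are the 2 inhibitors (Camk2n1, Camk2n2) and the 4 kinase subunits (Camk2a, Camk2b, Camk2d, Camk2g) of the calcium/calmodulin-dependent protein kinase II, CaMKII. They are 6 of 12198 genes named on a larger array design, with 9 of its 33849 probes with values, and 6 of 6455 on a smaller one, with 8 of 9906 probes. Members were all probes that the platform annotation assigns to 1 of these symbols alone. The family was chosen by measured values of earlier results, which are not named with the choice. They were taken to be the levels of Camk2n1 in conditioned against unconditioned medium at 48 h on the larger design. Every member's value in that comparison is therefore a description with no test, and so is every comparison of Camk2n1 that uses 48 h arrays.

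The samples were dishes of rat cardiomyocytes, which are beating heart muscle cells, from day 1 ventricles, purified on Percoll gradients and kept for 24 h in cardiac medium. In 12 of the 18 samples this medium was then diluted to 50% with hesc medium, either conditioned by stem cells or unconditioned, at 5% FBS and 10% HS, and RNA was taken after 24 h or 48 h (3 samples for each medium and time). The other 6 samples were taken at time zero, with no treatment. Expression was read on CodeLink arrays, each hybridised with the biotin-labelled RNA of 1 sample: the larger design held 2 samples of each medium at each time and 4 of time zero, the smaller design 1 of each medium at each time and 2 of time zero. The design text counts 18 separate dishes but gives no separate cell preparations, so p-values reflect the spread among dishes and arrays and may be technical. Purified cultures of this kind are a model of newborn, not adult, heart muscle.

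CaMKII is a multisubunit serine/threonine kinase that calcium-loaded calmodulin switches on and that can stay active after phosphorylating itself. In heart muscle it acts on the ryanodine receptor, on phospholamban and on L-type calcium channels, and through class II histone deacetylases on MEF2-driven transcription. Camk2d encodes the main cardiac subunit and Camk2g a second one in heart, while Camk2a and Camk2b are best known from neurons. Camk2n1 and Camk2n2 encode small proteins that bind the active kinase and block it.

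Values are median-scaled intensities, in which each array was scaled to a common median of 95.5 on the larger and 295 on the smaller design, and values under 4.78 and 14.7 were raised to that floor before taking log2. Changes are log2 differences from a limma fit over the 12 larger arrays, given ± SE after subtracting the median change over all probes. A probe was called at an adjusted p under 0.05, by Benjamini-Hochberg over the 23694 probes tested. The subtracted median was 0.01 at 24 h and 0.18 at 48 h for conditioned against unconditioned medium, and the p-values test the change before it was subtracted. The annotation gives no detection flag, probe sequences were not analysed here, and intensities of different probes cannot be set against each other.

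On the larger design 3 arrays stood apart: unconditioned 48 h replicate 2 and, at time zero, replicates 4 and 5. Their upper quartile of intensity was 25.7, 22.5 and 22.4 times the lower one, while this ratio ran from 38.7 to 47.8 on the other 9 arrays. On the smaller design both conditioned arrays stood apart (16.6 and 16.3, against 27.2 to 54.1 on the other 4), so there this array property and the medium cannot be told apart. Of 9 cardiomyocyte marker genes 7 were on the larger design, and all 7 were above the filter on level, with a summed intensity of 102000 to 208000 over the arrays. A lower level in these bulk samples cannot tell fewer cells that express a gene from less RNA per cell.

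Camk2n1 was higher in conditioned than in unconditioned medium at both times on the larger design, and its level in unconditioned medium lay below that at time zero. At 48 h probe 238015 had intensities of 199 and 156.5 in conditioned medium, against 16.2 and 26.0 in unconditioned medium. At 24 h it had 147 and 103 in conditioned medium, against 41.2 and 53.1 in unconditioned medium. The 4 time zero arrays read 113, 74.2, 57.7 and 108. Of these arrays time zero replicates 4 and 5 (74.2 and 57.7) and unconditioned 48 h replicate 2 (16.2) are the ones that stood apart. In order of level, conditioned 48 h came first and did not overlap with conditioned 24 h, which overlapped with time zero. All time zero arrays lay above both unconditioned 24 h arrays, and these above both unconditioned 48 h arrays.

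At 48 h the change of Camk2n1 between the media was 2.93 ± 0.50, a 7.60-fold difference, which is taken as the value that chose the family and carries no test here. Without the 3 arrays that stood apart it was 2.82, and with a pseudocount in place of the floor it was 1.58, the lowest of the alternatives. Of all probes 0.148% were called in that comparison. Calls among the 6 member probes above the filter are not given there. The change from time zero was 0.89 ± 0.44 in conditioned and -2.06 ± 0.44 in unconditioned medium at 48 h, both descriptions as well. More of the gap at 48 h lay below the time zero level than above it. At 24 h, on arrays that the choice as taken here did not use, the change between the media was 1.39 ± 0.50. It did not pass (limma adjusted p = 0.62). If the choice also used the 24 h arrays, the p-values of Camk2n1 at 24 h are no test. Both conditioned arrays were above both unconditioned ones. In that comparison 0 of 6 member probes were called by limma, against 0.245% of all probes. At an unadjusted p under 0.05 there were 2 of the 6, and 1254 of all 23694 probes tested. From time zero to 24 h Camk2n1 stood at 0.35 ± 0.44 in conditioned medium (adjusted p = 0.63) and at -1.05 ± 0.44 in unconditioned medium (adjusted p = 0.54). Without the 3 arrays that stood apart the change between the media at 24 h was the same size (1.39) and passed (adjusted p = 0.0385). That fit keeps the same 4 arrays at 24 h, so it is no separate check of the difference.

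**Figure D1:**
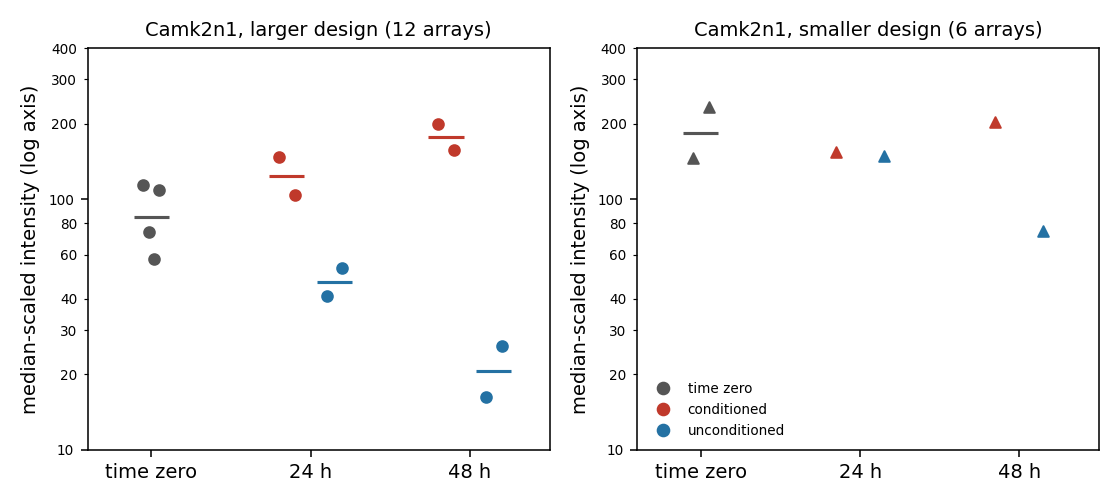
Median-scaled intensity of Camk2n1 (log axis) at time zero, 24 h and 48 h, with 1 point per array and a bar at the mean of log2 values where a group holds over 1 array. On the larger design conditioned arrays lie at 156.5 and 199 at 48 h, against 16.2 and 26.0 in unconditioned medium. On the smaller design the media are close at 24 h and apart at 48 h.

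The 6 arrays of the smaller design did not enter that comparison. There Camk2n1 (probe 1720) had an intensity of 203 in conditioned and 74.8 in unconditioned medium at 48 h, a log2 difference of 1.82 after subtracting the median of all probes, which was -0.38. At 24 h it had 153.5 in conditioned and 148 in unconditioned medium, a difference of 0.34 relative to a median of -0.29. The time zero arrays read 145 and 233. So the conditioned 48 h array lay within the range of time zero, and the unconditioned 48 h array was the lowest of the 6. On the larger design the unconditioned 48 h arrays were the lowest as well. With 1 array in each medium there is no test, and the separate quartile ratios of the conditioned arrays move with this difference, whose part in it was not tested. In deposited intensities, before any scaling, the larger design held 208 and 163 in conditioned and 19.8 and 22.5 in unconditioned medium at 48 h.

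Some marker lists of other cell types were read beside this gap, at 48 h on the larger design. These were the lists whose summed intensities lay apart, or nearly so, between the media. The 6 leukocyte markers summed to intensities of 819 to 821 in conditioned medium, 1050 to 1480 in unconditioned medium and 680 to 1330 at time zero, with Lyz2 at the floor on all 12 arrays. Within that list Cd74, the invariant chain of MHC class II, stood at -4.08 ± 0.76 between the media at 48 h (adjusted p = 0.0515) and at -3.51 ± 0.76 at 24 h (adjusted p = 0.077), sizes that depend on the floor, since it was at the floor on 3 of 12 arrays. Csf1r, the receptor of macrophage colony-stimulating factor, stood at -1.43 ± 0.49 at 48 h (adjusted p = 0.47), while Cd68 pointed the other way at 0.57 ± 0.42 (adjusted p = 0.66). The 7 smooth muscle and pericyte markers summed to 41900 to 44100 in conditioned medium, 30800 to 39400 in unconditioned medium and 17400 to 30800 at time zero. Bright probes such as Acta2 (0.04 ± 0.39, adjusted p = 0.93) and Tagln (0.48 ± 0.35, adjusted p = 0.64) carry that sum. The median change of the 6 tested genes was -0.09, 3 of 6 lay above the all-probe median, and Myh11 stood at -1.01 ± 0.35 (adjusted p = 0.51). The 7 fibroblast markers, of which Fbln1 was at the floor on all arrays, met at the edge of their ranges. They summed to 5250 to 6020 in conditioned medium, 6010 to 10400 in unconditioned medium and 2250 to 4080 at time zero. None of the tested genes of these 3 lists passed between the media at 48 h, and their part in the Camk2n1 values was not tested.

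At 24 h the muscle markers were lower in conditioned medium. The 7 cardiomyocyte markers summed to 144000 to 169000 in conditioned medium, against 200000 to 208000 in unconditioned medium, and the 7 smooth muscle and pericyte markers to 30300 to 33000, against 45000 to 53000. None of either list passed in that comparison (limma, 0 of 7 and 0 of 6 tested). Their part in the member values at 24 h was not tested.

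Camk2n2, the paralog of Camk2n1, was near the lower limit of both designs and was not tested. Probe 45107 was at the floor on 5 of 12 larger arrays and reached at most 16.4. Its intensities at 48 h were 16.1 and 13.8 in conditioned medium, against the floor and 5.20 in unconditioned medium. At 24 h they were the floor and 7.17 in conditioned medium, against 16.4 and the floor in unconditioned medium. On the smaller design all 6 arrays were at the floor. No level of Camk2n2 could be read beyond these bounds.

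Of the kinase subunits, 5 probes were above the filter on the larger design, and none was called in any comparison in which they were tested. Between the media at 24 h 1 of the 5 had an unadjusted p under 0.05 in limma, as had 1254 of all 23694 probes tested. The smallest adjusted p of the 5 was 0.73.

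Camk2a averaged lower in conditioned than in unconditioned medium at each time, and did not pass at 24 h. Probe 254067 had intensities of 38.6 and 57.7 in conditioned medium at 24 h, against 108 and 116 in unconditioned medium. At 48 h it had 73.8 and 79.6 in conditioned medium, against 108 and 130.5 in unconditioned medium. Time zero ran from 42.2 to 91.9. Both conditioned groups overlapped with that range, and both unconditioned groups lay above it. The change between the media was -1.26 ± 0.50 at 24 h (adjusted p = 0.73) and -0.81 ± 0.50 at 48 h. Against time zero the change in unconditioned medium was 0.64 ± 0.43 at 24 h (adjusted p = 0.56) and 0.90 ± 0.43 at 48 h (adjusted p = 0.36), and in conditioned medium -0.60 ± 0.43 at 24 h (adjusted p = 0.72) and 0.12 ± 0.43 at 48 h (adjusted p = 0.79).

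The smaller design's Camk2a probe of the same accession (1212) had 39.6 in conditioned and 77.8 in unconditioned medium at 24 h, and 73.3 in conditioned and 108 in unconditioned medium at 48 h, beside 41.6 and 89.1 at time zero. The conditioned array was thus below the unconditioned one at both times there too, although this probe did not pass the smaller table's filter on level. The other Camk2a probe (73049) was at the floor on 5 of 12 larger arrays and read 286 on time zero replicate 4 and 126.5 on unconditioned 48 h replicate 2, which both stood apart, and at most 14.6 on the other 10.

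Because Camk2a is best known from neurons, markers of neurons and glia were read beside it. Of 11 such genes 7 were on the larger design and 3 were above the filter. Snap25, a synaptic vesicle fusion protein, was at the floor on 10 of 12 arrays and Gfap, the intermediate filament of astrocytes, on 11. The 3 above the filter were Nefl, Syn1 and S100b, and all 3 lay below the all-probe median between the media at both times, the direction of Camk2a. Nefl stood at -0.36 ± 0.45 at 24 h and -0.12 ± 0.45 at 48 h. S100b stood at -0.10 ± 0.38 at 24 h and -0.21 ± 0.38 at 48 h. Each of these changes was smaller than its SE. Syn1, a synaptic vesicle protein, stood at -0.87 ± 0.51 at 24 h (adjusted p = 1.00) and -0.45 ± 0.51 at 48 h (adjusted p = 0.93). The 7 markers summed to 304 to 396 in conditioned and 405 to 414 in unconditioned medium at 24 h, and to 356 to 395 in conditioned and 339 to 441 in unconditioned medium at 48 h, with 343 to 500 at time zero. None passed between the media, and their part in the Camk2a values was not tested.

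Camk2b was higher in unconditioned medium at 24 h than on 3 of the 4 time zero arrays. Probe 36086 had intensities of 250 and 266 in unconditioned medium, against 112, 342, 72.7 and 106.5 at time zero. The value of 342 came from time zero replicate 4, which stood apart. The change was 0.79 ± 0.46 (adjusted p = 0.50), and without that array it was 1.35 and passed (adjusted p = 0.0279). At 48 h unconditioned medium had 158 and 245, a change of 0.57 ± 0.46 from time zero (adjusted p = 0.69). Without the 3 arrays that stood apart it was 1.17 (adjusted p = 0.0226), with 1 unconditioned 48 h array left, which was assumed to vary like the other groups. Conditioned medium had 181 and 164 at 24 h and 155 and 165 at 48 h, above 3 of the 4 time zero arrays.

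Between the media Camk2b stood at -0.59 ± 0.53 at 24 h, where both conditioned arrays were below both unconditioned ones (adjusted p = 1.00), and at -0.47 ± 0.53 at 48 h, where the arrays overlapped. The probe of the same accession on the smaller design (18946) had 104.5 in conditioned and 139 in unconditioned medium at 24 h, and 244 in conditioned and 121 in unconditioned medium at 48 h, beside 58.1 and 52.5 at time zero. All 4 medium arrays were above both time zero arrays, relative to the median of all probes by 1.17 (conditioned) and 1.33 (unconditioned) at 24 h and by 2.41 (conditioned) and 1.05 (unconditioned) at 48 h on the log2 scale. The direction between the media at 48 h was opposite on the 2 designs, with a difference of 1.39 on the smaller one. The second Camk2b probe was at the floor on 7 of 12 larger arrays and on all 6 smaller ones, so only 1 probe of this gene gave levels above the floor throughout.

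**Figure D2:**
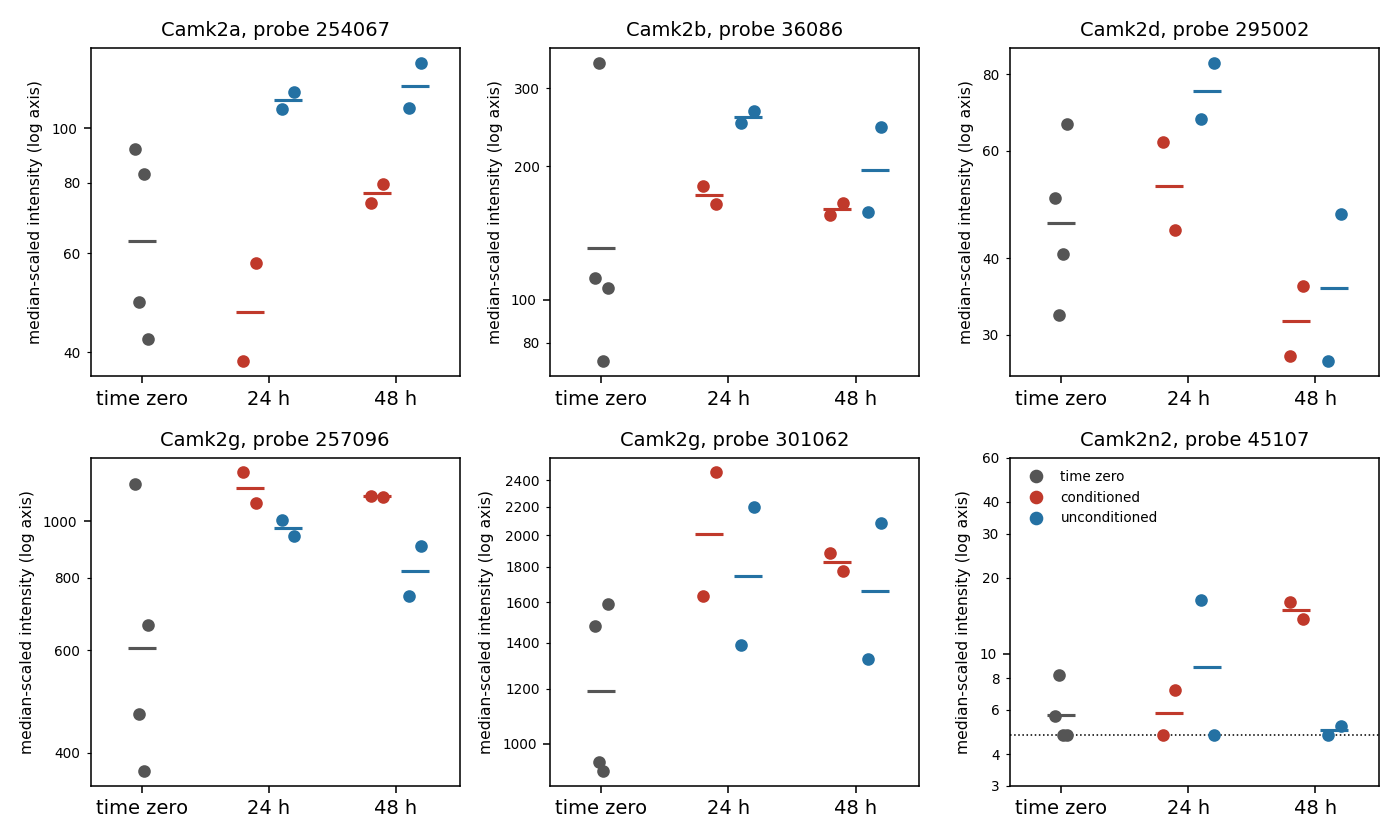
Median-scaled intensity (log axis) of the 5 kinase probes above the filter and of Camk2n2 on the 12 larger arrays, at time zero, 24 h and 48 h. Points are arrays, bars are means of log2 values, and the dotted line in the Camk2n2 panel is the floor of 4.78. Camk2a averages lower in conditioned medium at both times. Camk2g probe 257096 averages higher there, with changes smaller than their SE (0.22 ± 0.43 at 24 h and 0.24 ± 0.43 at 48 h). The time zero arrays of Camk2b and Camk2g spread widely.

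Camk2d, the main cardiac subunit, was read by 1 probe per design, with intensities of 27.2 to 83.4 on the larger one, below the common median of 95.5. At 24 h it had 62.0 and 44.4 in conditioned medium, against 67.6 and 83.4 in unconditioned medium, with a change of -0.53 ± 0.61 (adjusted p = 1.00). At 48 h it had 27.7 and 36.0 in conditioned medium, against 27.2 and 47.3 in unconditioned medium, with a change of -0.36 ± 0.61. In both media the 48 h arrays were below the 24 h arrays. The change from 24 h to 48 h was -0.72 ± 0.61 in conditioned medium (adjusted p = 1.00) and -0.89 ± 0.61 in unconditioned medium (adjusted p = 0.94). Time zero, with 50.2, 32.3, 40.6 and 66.4, overlapped with conditioned medium at both times and with unconditioned medium at 48 h. Camk2d on the smaller design was read by probe 12546, which did not pass that table's filter on level. There it had 32.2 in conditioned and 69.2 in unconditioned medium at 24 h. At 48 h it had 32.6 in conditioned medium and was at the floor in unconditioned medium, and the time zero arrays read 28.8 and 56.6.

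Camk2g was read by 2 probes on the larger design that correlated with r = 0.77 over the 12 arrays, which share their scaling and groups. Both conditioned groups averaged above time zero on both probes, and neither probe passed. Probe 257096 had 1213 and 1077 in conditioned medium at 24 h and 1106 and 1100 at 48 h. In unconditioned medium it had 1004 and 944 at 24 h and 745 and 908 at 48 h, below both conditioned arrays each time. At time zero it had 1161, 465, 372 and 664. Its change from time zero was 0.74 ± 0.37 in conditioned medium at 24 h (adjusted p = 0.23) and 0.70 ± 0.37 at 48 h (adjusted p = 0.20). In unconditioned medium it was 0.50 ± 0.37 at 24 h (adjusted p = 0.59) and 0.43 ± 0.37 at 48 h (adjusted p = 0.71). Without time zero replicate 3, the highest of that group, both conditioned changes passed, at 0.97 (adjusted p = 0.0439) and 0.94 (adjusted p = 0.0326). Without the 3 arrays that stood apart they were 0.40 (adjusted p = 0.36) and 0.37 (adjusted p = 0.38), and without time zero replicate 5 alone 0.54 (adjusted p = 0.46) and 0.51 (adjusted p = 0.41). The lowest time zero arrays, replicates 4 and 5, are 2 of the 3 that stood apart.

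The other Camk2g probe (301062) had 1636 and 2464 in conditioned medium at 24 h, against 1480, 942, 914 and 1591 at time zero. In unconditioned medium it had 1389 and 2196, which overlapped with conditioned medium. Its change was 0.57 ± 0.34 (adjusted p = 0.31), and with both designs fitted together it was 0.74 and passed (adjusted p = 0.0460). At 48 h it had 1883 and 1773 in conditioned and 1327 and 2080 in unconditioned medium, and the change from time zero in conditioned medium was 0.45 ± 0.34 (adjusted p = 0.36). The smaller design's Camk2g probe of the same accession (21841) had 709 in conditioned and 482.5 in unconditioned medium at 24 h, and 577 in conditioned and 298 in unconditioned medium at 48 h, beside 402 and 280 at time zero. The conditioned arrays, which stood apart there, were the highest of the 6 at both times. On the larger design the medium changes at 24 h were 0.22 ± 0.43 for probe 257096 and 0.19 ± 0.40 for probe 301062 (adjusted p = 1.00 for both), and at 48 h 0.24 ± 0.43 and -0.04 ± 0.40.

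**Figure D3:**
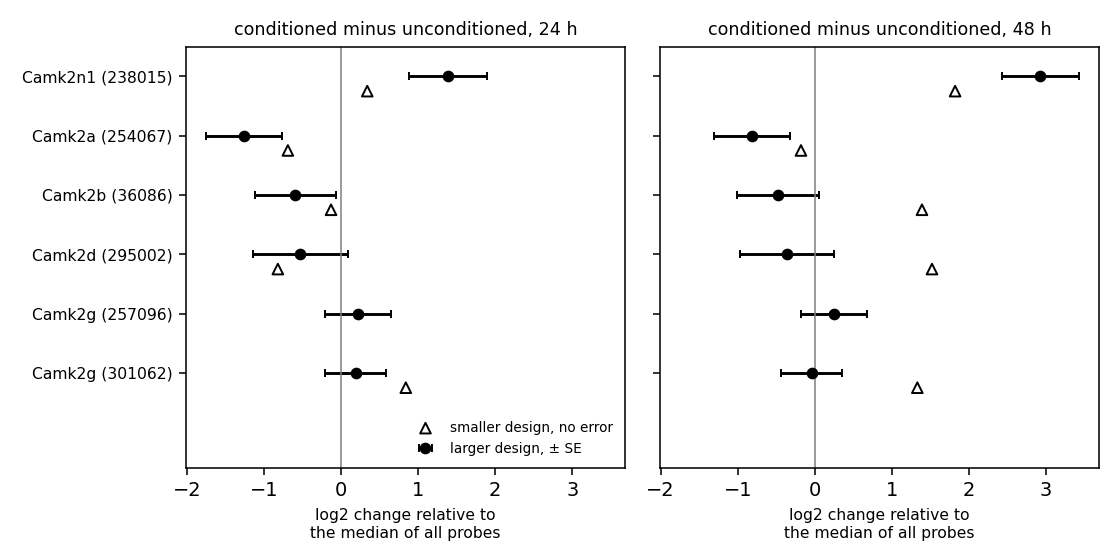
Log2 change in conditioned minus unconditioned medium relative to the median of all probes, at 24 h and 48 h, for the 6 member probes above the filter on the larger design (circles, ± SE) and the smaller design's probe of the same accession (triangles, 1 array per medium). Camk2n1 lies to the right and Camk2a to the left of 0 on both designs at both times. On the smaller design Camk2n1 at 24 h is at 0.34, with a subtracted median of -0.29. Camk2a at 48 h is at -0.18 there, with a subtracted median of -0.38, from a probe below the filter. Camk2b, Camk2g probe 301062 (-0.04 and 1.33) and Camk2d point in opposite directions on the 2 designs at 48 h. The smaller design's Camk2d probe is below the filter and has 1 array at the floor.

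Against time zero, 0 of 5 kinase probes were called at 24 h in conditioned medium, where 3.17% of all probes were called. In unconditioned medium it was 0 of 5, with 0.815% of all probes called. At an unadjusted p under 0.05 in limma conditioned medium had 2 of 5, and 3628 of all 23694 probes tested. Unconditioned medium had 1 of 5, and 2341 of all probes. At 48 h it was 0 of 5 in conditioned medium, with 6.47% of all probes called, and 0 of 5 in unconditioned medium, with 2.90%. At an unadjusted p under 0.05 each medium had 1 of 5. Of all probes 4575 had this in conditioned and 3187 in unconditioned medium. These 4 comparisons share the time zero arrays. From 24 h to 48 h 0 of 5 were called in either medium, none at an unadjusted p under 0.05, where 0.00422% of all probes were called in conditioned and 0% in unconditioned medium. The difference of the medium effects between the times called 0 of 5 and 0% of all probes, and for Camk2n1 it stood at 1.52 ± 0.71, a description.

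Markers of other cells also rose or fell over the same times, which here means called at an adjusted p under 0.05. At 48 h 6.47% of all probes were called in conditioned and 2.90% in unconditioned medium. At 24 h it was 3.17% in conditioned medium. Of 5 endothelial markers above the filter 4 rose and 1 (Kdr) fell from time zero to 48 h in each medium, with summed intensities of 2510 to 2660 in conditioned medium, 1940 to 3070 in unconditioned medium and 905 to 1360 at time zero. Of 6 smooth muscle and pericyte markers 2 rose at 48 h in each medium, with the sums given above, and all 6 lay above the all-probe median. Of 3 tested fibroblast markers 1 rose in conditioned and 2 in unconditioned medium at 48 h, while all 3 lay above the all-probe median in each. Of 4 tested leukocyte markers Cd74 fell in conditioned medium, with changes of -5.20 at 24 h (adjusted p = 0.000205) and -5.41 at 48 h (adjusted p = 8.25e-05) on the floored log2 scale, and Cd14 rose in unconditioned medium at 48 h by 1.17 (adjusted p = 0.0448). Their part in the changes of Camk2b and Camk2g from time zero was not tested.

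**Figure D4:**
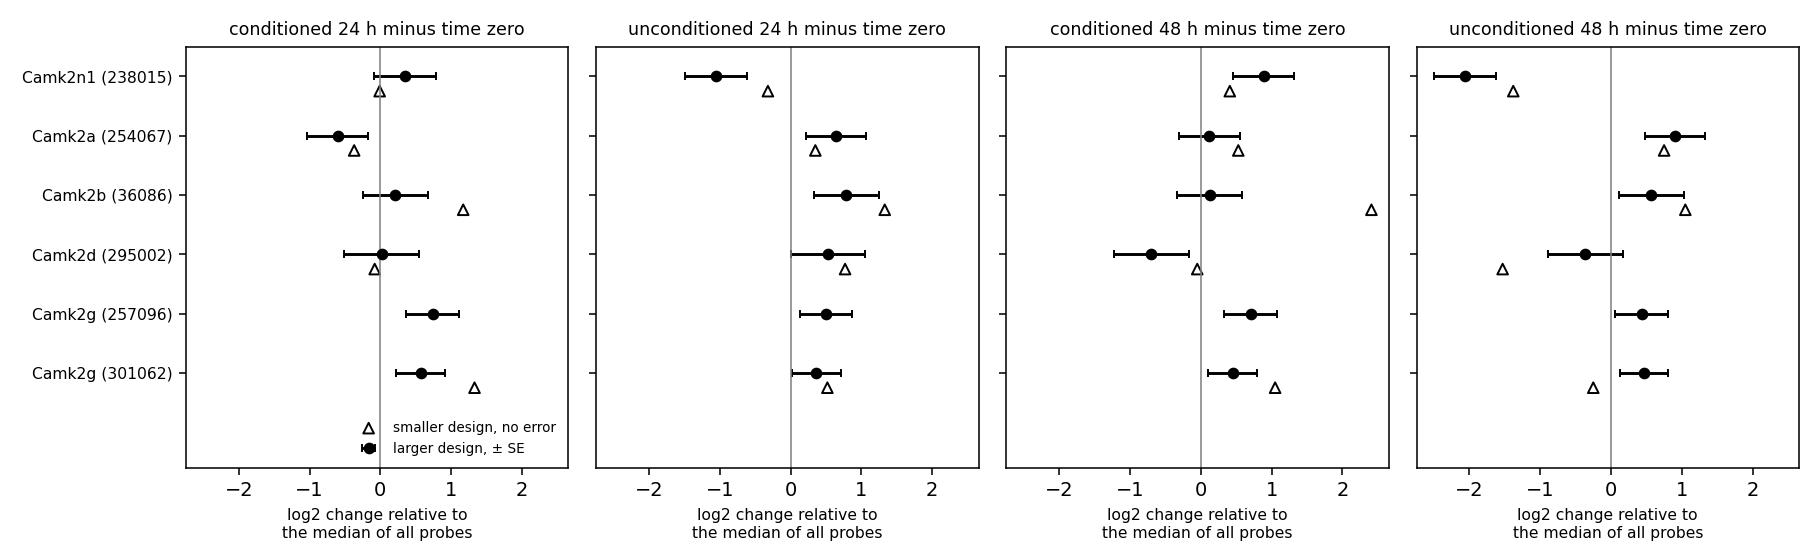
Log2 change from time zero relative to the median of all probes for conditioned and unconditioned medium at 24 h and 48 h, for the same probes and symbols (circles ± SE on the larger design, triangles with no error on the smaller one). Camk2n1 lies at -1.05 and -2.06 in unconditioned medium and at 0.35 and 0.89 in conditioned medium on the larger design. No kinase probe passed the test in these 4 comparisons.

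No gene of 6 lists of the pathway around CaMKII passed between the media. Upstream, 3 calmodulin genes and buffers were tested and none passed at 24 h or 48 h (list medians 0.03 and 0.21, against 0 for all probes, whose quartiles were -0.28 and 0.31 at 24 h, -0.36 and 0.33 at 48 h). Of 10 other calmodulin-dependent kinases none passed (0.09 and -0.25), and of 9 calcineurin and NFAT genes, the phosphatase branch of calcium signalling, none passed (-0.18 and -0.13). Of 8 phosphatases that act on CaMKII none passed (0.01 and 0.27), with Ppp1r1a, an inhibitor of protein phosphatase 1, at -1.08 ± 0.45 at 24 h (adjusted p = 0.79). Downstream, 7 cardiac CaMKII substrates had medians of -0.41 and 0.05 and none passed, and 1 of 7 lay above the all-probe median at 24 h and 4 of 7 at 48 h. Ryr2, the calcium release channel of the sarcoplasmic reticulum, stood at -1.01 ± 0.36 at 24 h (adjusted p = 0.62) and 0.16 ± 0.36 at 48 h (adjusted p = 0.86). Of 7 MEF2 factors and hypertrophy genes none passed (-0.41 and -0.24), and 7 of 7 were below the median of all probes at 24 h. The cardiomyocyte markers had the same median at 24 h (-0.41), with 0 of 7 above that of all probes. They share Nppa and Myh7 with the hypertrophy list and Ryr2, Pln and Mybpc3 with the substrates, so these lists are not independent.

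Against time zero 1 gene of these 6 lists passed, in conditioned medium at 48 h. There 6.47% of all probes were called, and nothing is read from this count. Dapk2, a death-associated kinase that calmodulin activates, rose in conditioned medium at 48 h by 1.59 ± 0.33 (adjusted p = 0.0029), with intensities of 1465 and 1342, against 526, 346, 309 and 534 at time zero. In unconditioned medium at 48 h it had 461 and 848.5, a change of 0.58 ± 0.33 (adjusted p = 0.49). The difference between the media at 48 h was 0.99 ± 0.38 and did not pass (adjusted p = 0.37). The call was lost without either conditioned 48 h array (adjusted p = 0.0804 without replicate 2 and 0.0594 without replicate 3), while the change stayed between 1.49 and 1.66 leaving out 1 array.

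The genes whose profiles over the 12 larger arrays were most like that of Camk2n1, among 9952 other genes, were Agpat2, an enzyme of phosphatidic acid synthesis (Pearson's r = 0.946), the proton-activated chloride channel Pacc1 (0.945), the glycerol-3-phosphate dehydrogenase Gpd1 (0.916), the membrane glycoprotein Gpnmb (0.911) and cyclin H, Ccnh (0.909). The arrays share 5 groups and their scaling, so these values describe the pattern only. Agpat2 had 625 and 660 in conditioned medium at 48 h, against 234 and 363 in unconditioned medium and 432 to 639 at time zero. Gpd1 had 2070 and 1955 in conditioned medium at 48 h, against 623 and 1024 in unconditioned medium and 860 to 2133 at time zero. For the brighter Camk2g probe (301062) the nearest profiles were those of Camta1, a calmodulin-binding transcription activator (0.959), Utp4 (0.957), the kinase Pim3 (0.954), Enoph1 (0.952) and Bop1 (0.951). Between Camk2n1 and the kinase probes r ran from -0.63 with Camk2a to 0.32 with a Camk2g probe.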

How the data were processed

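The deposited values are linear intensity of 1-colour CodeLink arrays, per the labels' protocols. How the authors scanned the arrays, corrected background or normalized is not given in the sources used here. The lowest deposited values are 0.0001, and array medians ran from 70.3 to 143.6 on the larger and from 214 to 416 on the smaller design, with no pair of arrays holding identical values. Each array was scaled to the geometric mean of its table's medians, and log2 was taken after raising values to a floor of 0.05 of that mean. The lowest 30% of probes by mean were dropped (23694 of 33849 kept, with 6 of 9 member probes, and 3 of 8 on the smaller design). All 5 groups of the larger design were fitted in R 4.3.3 by limma 3.58.1, using lmFit and a trended eBayes with 7 residual degrees of freedom. The smaller design was not tested. Replicate numbers are names only, given by accession order, and pair no samples.

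Probes were named from the platform annotation, and all 6 member symbols matched RefSeq by gene ID. A gene with several probes had each described, and in lists the probe with the highest mean stood for it. Named were all members, list genes that passed (up to 4 for each list and comparison) and the 5 genes most correlated with Camk2n1 and with the brightest kinase probe. Dapk2 met this rule. Ppp1r1a, Ryr2 and single cell type markers were named after their values were seen. The members, lists and alternatives were chosen with earlier results of these data known. The fit was tested on simulated data. Figures used matplotlib 3.10.9 in Python 3.11.15.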

Additional observations from a re-analysis of the deposited data

Results flagged for a closer look

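Camk2a probe 73049 read 286 on time zero replicate 4, far from the other 3 arrays of that group (6.58 and 2 at the floor). It was flagged because its gap to the nearest array was 0.922 of the group's range on the log2 scale, above Dixon's 95% critical value for 4 samples. Of 9 member probes examined in this way 1 was flagged. Chance flags about 1 in 20 groups of normally distributed values. Values tied at the floor, as here, are not of that kind, and the floor sets the lower end of the range. The same probe read 126.5 on unconditioned 48 h replicate 2, and both arrays are among the 3 that stood apart.

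Camk2n1 was flagged because both conditioned 48 h arrays lay above all 4 time zero arrays (199 and 156.5, against 57.7 to 113), while both unconditioned 48 h arrays lay below all of them (16.2 and 26.0). The media differed by 2.93 on the log2 scale. This difference was not tested, since it is taken as the value that chose the family.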

How the results depend on the processing

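Results were recomputed under 23 alternatives, of which leaving out the 3 arrays that stood apart together with quantile normalization was chosen after seeing the data. The fit of both designs together was adjusted over 4613 shared genes only. No paired analysis was possible because the labels carry no replicate numbers. Member counts below are given without the share of all probes called in the same fit. The number of calls over all probes moved with the setting, so nothing is read from these counts. The number of member probes called between the media at 24 h was 0, and 1 (Camk2n1) without the 3 arrays that stood apart, with or without quantile normalization. There Camk2n1 stood at 1.39 (adjusted p = 0.0385) and 1.40 with quantile normalization (adjusted p = 0.0364), and over all alternatives it ran from 0.85 to 1.65 with adjusted p up to 1.00. At 48 h member calls are not given, since that comparison is taken as the one that chose the family. A filter at the 50th percentile removes Camk2n1 and leaves 3 member probes. The change of Camk2n1 at 48 h was 1.58 with a pseudocount, 2.47 with both designs together and 2.71 to 3.12 leaving out 1 array.

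Against time zero the count at 24 h in unconditioned medium became 1 (Camk2b) without the 3 arrays, with or without quantile normalization, and was 0 to 1 leaving out 1 array (1 without time zero replicate 4). In conditioned medium it became 1 (Camk2g) with both designs together and was 0 to 1 leaving out 1 array, as at 48 h (1 without time zero replicate 3 at each time). In unconditioned medium at 48 h, where 2.90% of all probes were called, Camk2n1 is a description and its calls are not given. The change of Camk2b there was 1.17 without the 3 arrays that stood apart, with 1 unconditioned 48 h array left. The medium change of Camk2g probe 301062 at 24 h ran from -0.10 to 0.48 leaving out 1 array, and was -0.08 without unconditioned 24 h replicate 2. The change of Camk2a from time zero in conditioned medium at 48 h ran from -0.15 (without time zero replicate 6) to 0.29. With quantile normalization 302 probes in all were called between the media at 24 h, against 58, and 170 at 48 h, against 35. The cause of these differences was not tested. Dim probes limit the reading of Camk2n2 and of the second probes of Camk2a and Camk2b.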
